A study of Mus musculus with 18 samples.

Results

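The NF-κB family was examined as 10 transcripts, chosen by symbol: the subunits Nfkb1, Nfkb2, Rel, Rela and Relb, and the inhibitors Nfkbia, Nfkbib, Nfkbie, Nfkbiz and Tnfaip3. They are 10 of the 54446 genes in the deposited table, and every member passed the filter on low values. The cells were peritoneal eosinophils of Il5Tg mice, whose T cells overexpress the eosinophil growth factor IL-5 so that eosinophils accumulate, and the labels give the strain as C57BL/6. The ages of these mice are not given in the sources used here. All 18 libraries came from eosinophils cultured for 18 h with apoptotic cells (ACs), at 5 ACs per eosinophil, and re-purified by Siglec-F before RNA extraction. Before culture, T and B cells had been depleted with beads against Thy1.2 and B220, and the purity of the eosinophils was checked by flow cytometry before and after culture. As ACs, wild-type thymocytes were used after dexamethasone, a glucocorticoid, had killed them. The Type 1 experiment had 4 groups of 3 libraries: ACs without a further stimulus, and ACs with E. coli, with IFN-γ, or with IFN-γ first and E. coli after it (E. coli + ACs, IFN-γ + ACs, and IFN-γ + E. coli + ACs). The combination was thus given in sequence, and the time between the stimuli is not given in the sources used here. A separate experiment with IL-4, the IL-4 experiment, had 2 groups of 3 libraries, ACs and IL-4 + ACs. The doses of the stimuli are not given in the sources used here. Because every group held ACs, each value below is a response to a stimulus on top of ACs, and eosinophils cultured without ACs are not analysed here.

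NF-κB is a family of dimeric transcription factors that are held in the cytoplasm of resting cells by inhibitor proteins of the IκB type. Bacterial products and inflammatory cytokines activate a kinase complex that marks the inhibitors for degradation, and the released dimers enter the nucleus and switch on inflammatory genes, including genes for their own inhibitors. In the non-canonical branch of the pathway, the precursor p100, made from Nfkb2, is trimmed to its active form and pairs with RelB. Most of this regulation takes place on proteins, and the libraries report only RNA.

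Members were counted from between 5 and 7054 reads per library, out of 779421 to 7782072 reads on genes. In the IL-4 experiment, replicate 3 of each group was shallow, with 779421 reads in ACs and 849705 in IL-4 + ACs. There 1 read stood for a normalized count of 5.36 and 5.14, respectively, so values of low members in these libraries rest on few reads. Eosinophil markers were present: none of 6 was at 0 in any group, although Epx and Ear1 did not pass the filter on low values in the Type 1 experiment. Their summed level, in normalized counts (reads per gene divided by the size factor of the library), was 6876 to 7290 in ACs of that experiment, 6856 to 7536 with E. coli, 4509 to 5313 with IFN-γ and 6115 to 7340 with both, so the IFN-γ libraries lay below all others of the experiment. Past the threshold (a limma adjusted p under 0.05 and at least 1.5-fold), Siglecf and Il5ra, 2 of the 4 tested, fell with IFN-γ, Il5ra fell with E. coli and Siglecf fell with both. In the IL-4 experiment the eosinophil markers summed to between 5633 and 6824. Macrophage markers were also abundant and moved with the stimuli. The summed level of 10 such markers was 15064 to 18842 in ACs of the Type 1 experiment, 7988 to 9469 in E. coli + ACs, 19959 to 28402 in IFN-γ + ACs and 8458 to 8675 in IFN-γ + E. coli + ACs. None of these 10 markers was at 0 in any group. Past the threshold, 6 of 10 fell with E. coli, 3 rose with IFN-γ, and 6 fell and 2 rose with both. In the IL-4 experiment they summed to 20449 to 29359 in ACs and 17622 to 28095 in IL-4 + ACs. The list is not specific to macrophages in these cells. By quantitative PCR the study found mRNA of Tim4 (Timd4), and to a lesser extent of Mertk, in peritoneal eosinophils. The summed level of 4 B cell markers was 890 to 1029 in ACs of the Type 1 experiment and 93.7 to 302 in its stimulated groups, and Ighm, 1 of the 2 tested, fell with each stimulus. The 7 neutrophil markers summed to 1560 to 1846 in ACs, 1886 to 2304 with E. coli, 1876 to 2378 with IFN-γ and 1000 to 1256 with both, and to between 3480 and 4716 in the IL-4 experiment. Of the 3 tested in the Type 1 experiment, 1 rose with E. coli (Cxcr2), 1 with IFN-γ (Ly6g), and 2 rose and 1 fell with both. The study itself names Ly6g among the transcripts that IFN-γ raised in eosinophils and ACs lowered. The 4 mast cell markers summed to 4.70 to 18.7 in ACs, 19.4 to 34.3 with E. coli, 24.6 to 66.5 with IFN-γ and 29.9 to 61.1 with both. Cpa3, the 1 tested, rose with IFN-γ and with both. This call rests on low values in ACs, and the filter on low values took in the groups in which Cpa3 was high. The 15 thymocyte markers summed to 158 to 222 in ACs, 220 to 291 with E. coli, 92.3 to 160 with IFN-γ and 93.8 to 161 with both. The 6 tested had a median log2 fold change of 0.72 with E. coli, Thy1 fell with IFN-γ and with both, and 3 were lower with both than with E. coli alone. In the IL-4 experiment mast cell markers summed to 5.14 to 26.8 and thymocyte markers to 64.3 to 103. Of the markers that define immature thymocytes, Rag2 was at 0 throughout in both ACs groups, Rag1 with E. coli, and Rag1 and Dntt with both stimuli. No thymocyte marker was at 0 throughout with IFN-γ or with IL-4, and the other thymocyte markers were at 0 throughout in no group. In bulk RNA, fewer cells of a type and less RNA per cell cannot be told apart, and the part of RNA from any of these cell types in the changes below was not tested. The share of reads from mitochondrial genes was 10.9% to 11.9% in ACs of the Type 1 experiment and 6.05% to 9.47% in its stimulated groups, and its part was not tested either.

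Several NF-κB genes carry NF-κB binding sites in their own promoters. The sequences below show where the 10-letter NF-κB consensus occurs near the start of members that the results turn on. RefSeq promoter windows (GRCm38.p6), from 250 bases before to 50 bases after a transcript start, were matched for 7 of 10 members. The consensus, searched on both strands, was found in at least 1 window of 5 of these 7 members: Nfkb2, Rel, Nfkbia, Nfkbie and Tnfaip3. Over all 27025 genes with a window, 5.14% had a match in at least 1, and over all 32851 windows 4.51% held a match. Windows of Rela and Nfkbib held none. Nfkb2 has 3 windows and Tnfaip3 has 2, of which the first is shown. Each line gives 160 bases, from 130 before the start to 30 after it, written 5′ to 3′ along the gene's strand, with matches to the consensus in capitals. Nfkb2 lies on the plus strand at chr19:46304607-46304766, Rel on the minus strand at chr11:23770940-23771099, Nfkbia on the minus strand at chr12:55492618-55492777, Nfkbie on the plus strand at chr17:45555570-45555729 and Tnfaip3 on the minus strand at chr10:19015381-19015540. Nfkbib, on the minus strand at chr7:28766615-28766774, is shown because its transcript rose in these data although its window held no match.
Nfkb2: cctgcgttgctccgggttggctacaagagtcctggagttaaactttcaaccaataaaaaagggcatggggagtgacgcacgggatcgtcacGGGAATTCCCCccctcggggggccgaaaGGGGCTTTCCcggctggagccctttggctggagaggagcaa
Rel: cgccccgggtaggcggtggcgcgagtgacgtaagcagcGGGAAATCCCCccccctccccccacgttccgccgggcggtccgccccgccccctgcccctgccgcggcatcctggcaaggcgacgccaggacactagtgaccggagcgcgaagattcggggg
Nfkbia: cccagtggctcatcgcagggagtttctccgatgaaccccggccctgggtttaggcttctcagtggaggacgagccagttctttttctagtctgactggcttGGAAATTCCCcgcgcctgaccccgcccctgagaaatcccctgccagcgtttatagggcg
Nfkbie: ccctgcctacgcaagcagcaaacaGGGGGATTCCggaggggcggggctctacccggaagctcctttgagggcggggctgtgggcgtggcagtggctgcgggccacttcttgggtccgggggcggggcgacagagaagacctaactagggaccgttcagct
Tnfaip3: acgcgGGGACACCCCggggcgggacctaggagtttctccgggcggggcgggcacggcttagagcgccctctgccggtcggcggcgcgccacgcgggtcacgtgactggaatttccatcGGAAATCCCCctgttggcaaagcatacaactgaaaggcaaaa
Nfkbib: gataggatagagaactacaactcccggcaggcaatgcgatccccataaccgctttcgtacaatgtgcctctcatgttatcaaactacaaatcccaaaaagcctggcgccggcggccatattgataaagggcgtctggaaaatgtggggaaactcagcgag
The Nfkb2 stretch held 3 matches, of which 2 overlap and appear as a single run of capitals. The Rel match is likewise a pair of overlapping matches, and the Tnfaip3 stretch held 2 that lie apart. A match of letters describes the sequence and does not show that a factor binds there.

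Transcripts were called changed at a Benjamini-Hochberg adjusted p under 0.05 in limma, over all genes tested, together with a change of at least 1.5-fold. Fold changes are on the log2(normalized count + 1) scale and are given with their standard error (SE). Of the 10 members, 4 rose with E. coli, 3 with IFN-γ and 5 with the combination. The 4 members raised by E. coli stand beside 5.05% of all 10166 tested transcripts that rose and 5.25% that fell. The 3 raised by IFN-γ stand beside 11.4% that rose and 9.96% that fell. With IFN-γ + E. coli, 14.7% rose and 17.2% fell. The median log2 fold change over the members was 0.52 with E. coli, 0.36 with IFN-γ and 0.80 with both, against medians of -0.00, -0.00 and -0.05 over all transcripts tested. Scaling changed the background: when libraries were scaled to a common upper quartile of values above 0, calls with IFN-γ moved from 1160 higher and 1013 lower to 688 and 1928, and those with both stimuli from 1494 and 1746 to 840 and 2850. Scaled to an upper quartile over the tested genes, the calls with both stimuli were 1180 and 2159. Under the first of these scalings the median of all transcripts shifted to -0.26 with IFN-γ and -0.35 with both. The samples are labelled as separate replicates and described as biological. For plots of eosinophils with ACs the study describes each lane as a different mouse, and whether the groups of an experiment came from the same mice is not stated, so p-values measure the spread between these libraries.

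**Figure D1:**
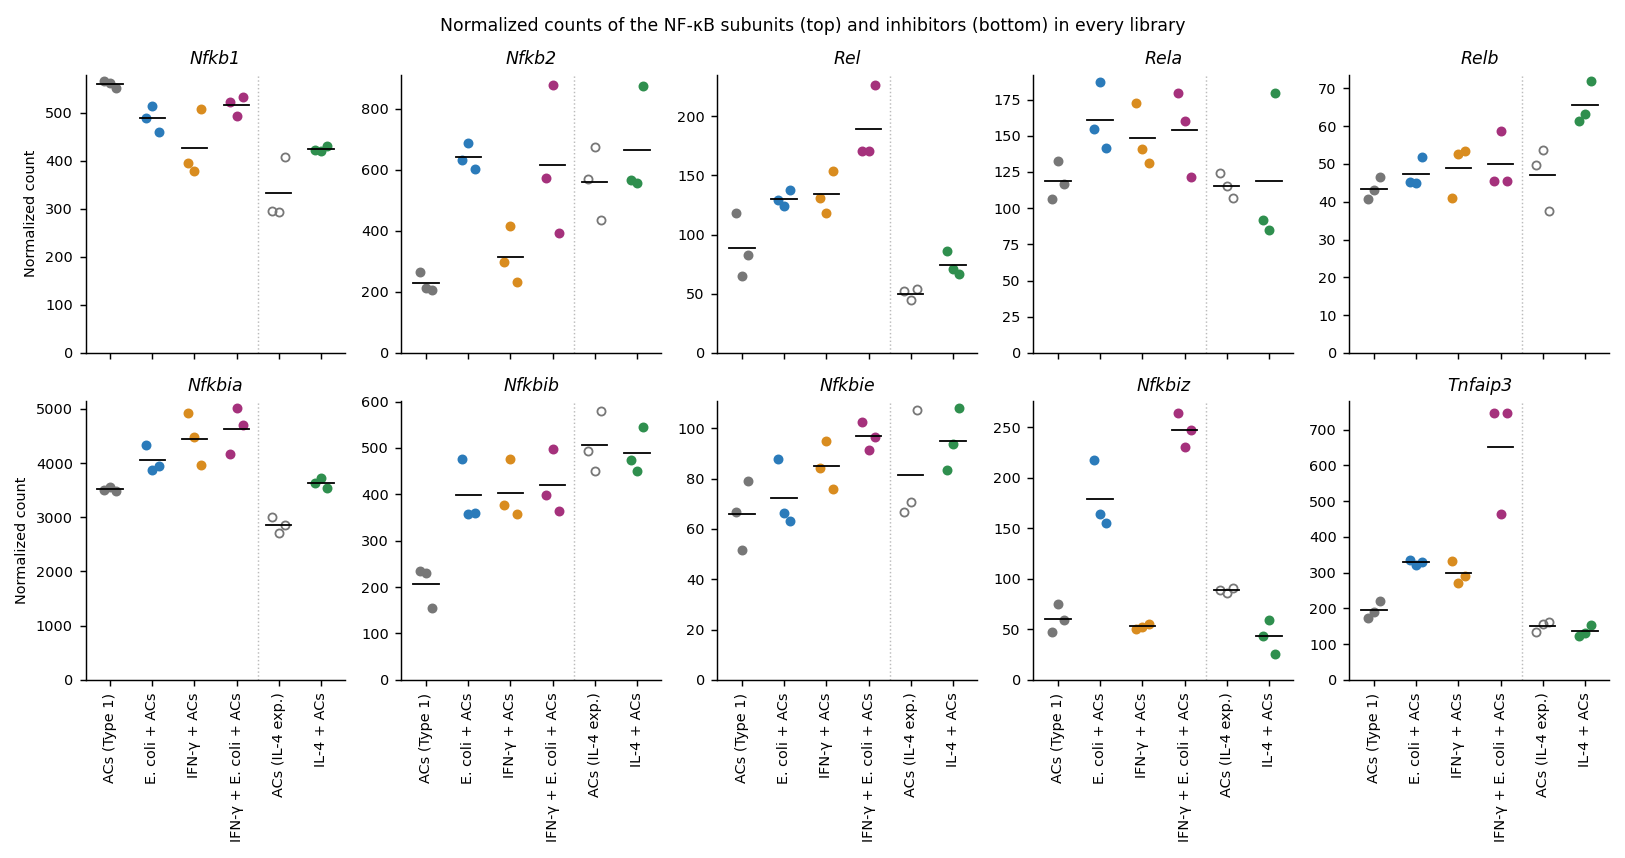
Normalized counts (linear axes from 0, a separate range for each gene) of the 10 members in each of the 18 libraries. Each point is 1 library, horizontal lines are group means, and the dotted line separates the Type 1 experiment from the IL-4 experiment, whose ACs libraries are the open circles. Nfkbiz lay at 155 to 264 in the 6 libraries with E. coli and at 47.2 to 75.1 in the 3 with ACs alone, and Tnfaip3 reached 463 to 748 with both stimuli.

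Among the subunits, Nfkb2 and Rel responded. Nfkb2 (GRCm38 chr19:46304320-46312385, plus strand) encodes p100, the precursor of p52, which in its unprocessed form also acts as an inhibitor. Its normalized counts were 264, 214 and 206 in ACs and 633, 688 and 601 in E. coli + ACs. All 3 libraries with E. coli lay above all 3 with ACs alone. The log2 fold change was 1.49 ± 0.23 (SE, limma adjusted p = 0.00016), a 2.81-fold rise. With IFN-γ + ACs, Nfkb2 counts were 298, 415 and 232, which overlapped those of ACs, and the log2 fold change of 0.43 ± 0.23 did not pass the test (limma adjusted p = 0.18). With both stimuli they were 573, 878 and 392. These spread widely but still lay above every ACs library, and the log2 fold change was 1.36 ± 0.23 (limma adjusted p = 0.00011). The 3′ end of Nfkb2 overlaps the antisense gene Psd by 299 bp, and whether counting used strand is not stated. Psd reached at most 2.34 normalized counts in any library. If strand was ignored, reads in the shared stretch could be given to neither gene. The low Psd count therefore cannot show whether Nfkb2 reads were lost there, and this was not tested.

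Rel (chr11:23736847-23770970, minus strand) encodes c-Rel, a subunit with an activation domain that is abundant in blood cells. Its normalized counts were 118, 64.8 and 83.2 in ACs, 129, 124 and 138 with E. coli, 131, 118 and 154 with IFN-γ, and 171, 171 and 226 with both. The combination gave higher values than any other group of the Type 1 experiment, with no overlap. Against ACs, Rel rose by a log2 fold change of 1.12 ± 0.21 with both stimuli (limma adjusted p = 0.00027). The change with IFN-γ alone was 0.63 ± 0.21 (limma adjusted p = 0.029), a call that was lost in 9 of 23 alternative analyses, among them edgeR (adjusted p = 0.056), DESeq2, whose fold fell short (log2 0.57), and upper quartile scaling (adjusted p = 0.20). The change with E. coli alone was 0.59 ± 0.21 and did not pass (limma adjusted p = 0.065). It was 0.82 and passed without ACs replicate 1 (adjusted p = 0.016), was 0.39 without ACs replicate 2 (adjusted p = 0.31), and passed without replicate 3 of IFN-γ + E. coli + ACs (0.59, adjusted p = 0.049).

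The other subunits did not pass the threshold in any comparison against ACs. Nfkb1 (chr3:135584655-135691547, minus strand) encodes p105, the precursor of p50. It was the subunit whose values lay lower with each Type 1 stimulus, with 566, 562 and 552 normalized counts in ACs, 490, 514 and 461 with E. coli, 396, 378 and 507 with IFN-γ, and 523, 492 and 533 with both. Every stimulated library lay below every ACs library. The log2 fold change was -0.20 ± 0.13 with E. coli (limma adjusted p = 0.35) and -0.12 ± 0.13 with both (limma adjusted p = 0.49). Neither passed, and both 95% confidence intervals included 0. With IFN-γ the log2 fold change was -0.40 ± 0.13 (limma adjusted p = 0.023), which falls short of 1.5-fold. Under upper quartile scaling it was -0.67 and passed (adjusted p = 0.00044), in a setting where the median of all transcripts was -0.26. A gene model on the same strand that the annotation marks as not yet verified, Gm43430, lies within Nfkb1 and reached at most 39.6 normalized counts.

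Rela (chr19:5637483-5648130, plus strand) encodes p65, the main activating partner of p50. It measured 107, 132 and 117 normalized counts in ACs and 155, 187 and 142 with E. coli, a log2 fold change of 0.44 ± 0.19 that did not pass (limma adjusted p = 0.14). The E. coli libraries were all higher than the ACs libraries, whereas Rela in the other stimulated groups, between 121 and 180, overlapped them. Relb (chr7:19606217-19629438, minus strand) encodes the partner of p52. Its counts stayed between 40.7 and 58.6 in all 12 libraries of the Type 1 experiment, and its 95% confidence intervals ran from -0.37 to 0.61 with E. coli, from -0.33 to 0.65 with IFN-γ and from -0.30 to 0.68 with both, on the log2 scale. A 1.5-fold rise in Relb therefore lies within these intervals, and a 1.5-fold fall lies outside them. Under upper quartile scaling the sign of the Relb change turned with IFN-γ (-0.10) and with both (-0.11).

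Among the inhibitors, Nfkbiz, Tnfaip3 and Nfkbib responded. Nfkbiz (chr16:55811375-55838899, minus strand) encodes IκBζ, a nuclear IκB protein that acts as a cofactor for a subset of NF-κB genes. Its normalized counts were 47.2, 75.1 and 58.7 in ACs, 218, 164 and 155 with E. coli, 50.1, 52.7 and 55.4 with IFN-γ, and 264, 231 and 247 with both. All libraries with E. coli were high, and those with IFN-γ alone sat within the range of ACs. The log2 fold changes were 1.56 ± 0.20 with E. coli (2.95-fold, limma adjusted p = 1.7e-05) and 2.04 ± 0.20 with both (4.11-fold, limma adjusted p = 1.3e-07). With IFN-γ alone the estimate was -0.17 ± 0.20 (95% confidence interval -0.58 to 0.25, limma adjusted p = 0.58), and it was 0.00 without ACs replicate 2.

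Tnfaip3 (chr10:19000910-19015657, minus strand) encodes A20, a ubiquitin-editing enzyme that shuts off signaling to NF-κB and is itself a target of the pathway. It measured 172, 189 and 222 normalized counts in ACs, 335, 322 and 329 with E. coli, 334, 272 and 291 with IFN-γ, and 747, 463 and 748 with both. Each stimulated group lay above ACs without overlap, and the combination lay above each single stimulus. The log2 fold changes were 0.77 ± 0.17 with E. coli (limma adjusted p = 0.0046), 0.62 ± 0.17 with IFN-γ (limma adjusted p = 0.010) and 1.72 ± 0.17 with both (limma adjusted p = 2.0e-07). Of these calls, that with IFN-γ was lost without ACs replicate 1 (0.54, adjusted p = 0.054), without IFN-γ + ACs replicate 1 (0.54, adjusted p = 0.048, short of 1.5-fold) and under both kinds of upper quartile scaling.

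Nfkbib (chr7:28758251-28767512, minus strand) encodes IκBβ, a cytoplasmic inhibitor. Its normalized counts were 234, 230 and 155 in ACs, 476, 356 and 361 with E. coli, 376, 476 and 357 with IFN-γ, and 399, 497 and 364 with both. The 3 stimulated groups overlapped each other and all lay above ACs. The log2 fold changes were 0.95 ± 0.18 with E. coli (limma adjusted p = 0.0012), 0.97 ± 0.18 with IFN-γ (limma adjusted p = 0.00044) and 1.03 ± 0.18 with both (limma adjusted p = 0.00016). These calls held under each of the 23 alternatives. In the ACs libraries of the IL-4 experiment Nfkbib measured 493, 449 and 579, above all 3 ACs libraries of the Type 1 experiment. These controls come from separate experiments and were not compared by a test. The 3′ end of Nfkbib overlaps the antisense gene Ccer2 by 718 bp, and Ccer2 was counted from 2 reads in all libraries together. As for Psd and Nfkb2, this cannot show whether Nfkbib reads were lost in the shared stretch. The 5′ end of Nfkbib overlaps Sirt2, which is also antisense, by 778 bp. Sirt2 measured 177 to 359 normalized counts and did not pass with any stimulus, with log2 fold changes of 0.12 ± 0.20 with E. coli, 0.29 ± 0.20 with IFN-γ and 0.01 ± 0.20 with both (limma adjusted p = 0.78, 0.31 and 0.97).

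The remaining inhibitors changed less. Nfkbia (chr12:55489410-55492647, minus strand) encodes IκBα, the classical inhibitor that NF-κB itself induces. Its normalized counts were 3506, 3559 and 3478 in ACs, 4341, 3877 and 3950 with E. coli, 4925, 4476 and 3956 with IFN-γ, and 4165, 5023 and 4712 with both. Every stimulated library was higher than every ACs library, by little. The log2 fold changes of 0.34 ± 0.11 with IFN-γ (limma adjusted p = 0.025) and 0.39 ± 0.11 with both (limma adjusted p = 0.0067) fell short of 1.5-fold, and that of 0.21 ± 0.11 with E. coli did not pass (limma adjusted p = 0.24). Nfkbie (chr17:45555703-45563169, plus strand) encodes IκBε. It measured 66.7, 51.6 and 79.1 normalized counts in ACs and 103, 91.6 and 96.6 with both stimuli. These did not overlap, and the log2 fold change of 0.57 ± 0.21 (limma adjusted p = 0.039) fell just short of 1.5-fold. With a single stimulus, Nfkbie lay between 63.3 and 95.1 and overlapped ACs.

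**Figure D2:**
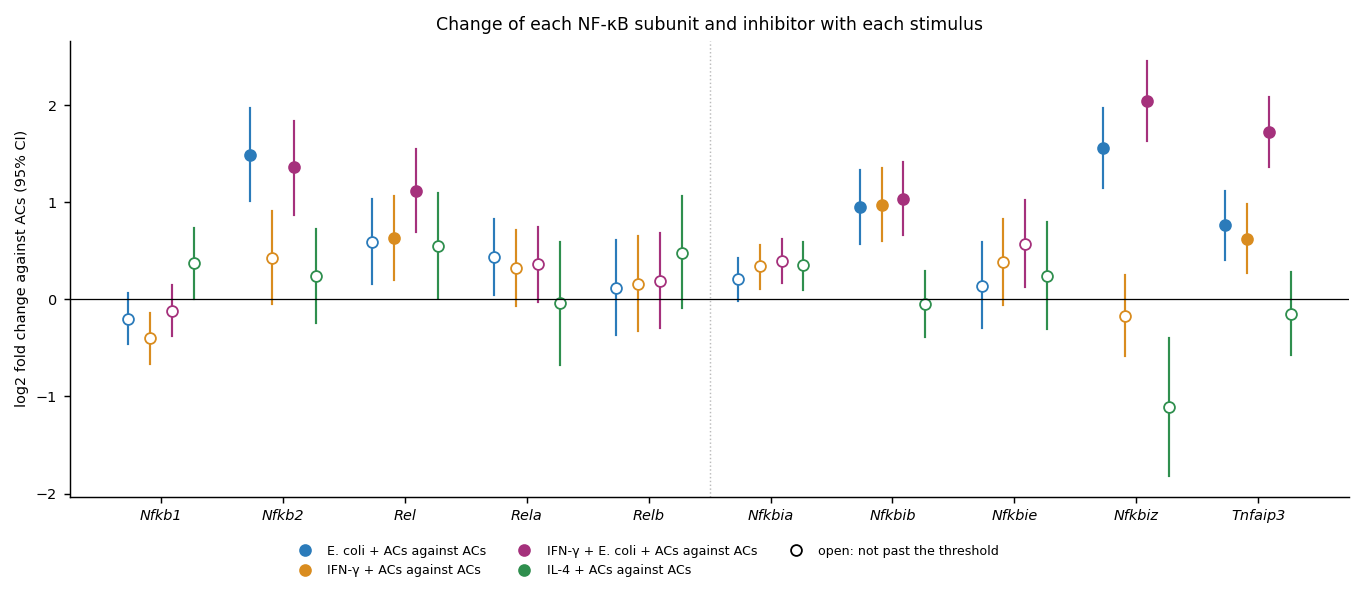
log2 fold change of each member against the ACs libraries of its own experiment, with the 95% confidence interval from limma. Colors mark the stimulus, filled circles passed the threshold, and the dotted line separates subunits from inhibitors. Nfkbiz with both stimuli (2.04) and Tnfaip3 with both (1.72) lie highest, and Nfkbiz with IL-4 (-1.11) lies lowest with an open circle.

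To ask whether the combination went beyond either stimulus alone, IFN-γ + E. coli + ACs, in which IFN-γ came first, was compared with each single stimulus. These comparisons share their libraries with those above. Against E. coli alone, IFN-γ followed by E. coli raised 1 of 10 members past the threshold, Tnfaip3, with a log2 fold change of 0.95 ± 0.17 (limma adjusted p = 0.00044), beside 9.79% of all transcripts that rose (995, with 973 lower, with 538 and 1894 under upper quartile scaling and 780 and 1321 with that over the tested genes). The count of 1 of 10 is close to that share, so it does not set the members apart. Rel (0.52 ± 0.21, limma adjusted p = 0.07) and Nfkbiz (0.48 ± 0.20, limma adjusted p = 0.083) did not pass, although their libraries with both stimuli lay above those with E. coli alone. Adding E. coli after IFN-γ raised 3 members over IFN-γ alone, beside 5.96% of all transcripts. Nfkbiz rose by 2.21 ± 0.20 (4.61-fold, limma adjusted p = 4.4e-07), Tnfaip3 by 1.09 ± 0.17 (2.14-fold, limma adjusted p = 0.00016) and Nfkb2 by 0.92 ± 0.23 (1.90-fold, limma adjusted p = 0.0076). The Nfkb2 groups overlapped, since the lowest library with both stimuli (392) was below the highest with IFN-γ alone (415).

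The interaction term asks whether the change with both stimuli differs from the sum of the single changes on the log2 scale. It passed for 1 of 10 members, Nfkbib, at -0.89 ± 0.26 (limma adjusted p = 0.038), beside 4.28% of all transcripts with an interaction below 0 past the threshold. Of the 10166 tested, 435 passed below 0 and 321 above 0, and a member could have passed in either direction. Nfkbib rose by 0.95 with E. coli, by 0.97 with IFN-γ and by 1.03 with both, which is less than the sum. This call was lost in 9 of 23 alternatives, 7 of which left out a single library, and its adjusted p ranged from 0.016 to 0.12. The terms of Nfkb1 (0.48 ± 0.18, limma adjusted p = 0.11) and Nfkbiz (0.64 ± 0.28, limma adjusted p = 0.17) were above 0 without passing. For Tnfaip3 the term was 0.33 ± 0.24 (95% confidence interval -0.18 to 0.84, limma adjusted p = 0.46), so the data do not separate its response from the sum of the single responses. Without IFN-γ + ACs replicate 3, the Nfkb1 term passed as well (0.61, adjusted p = 0.026).

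**Figure D3:**
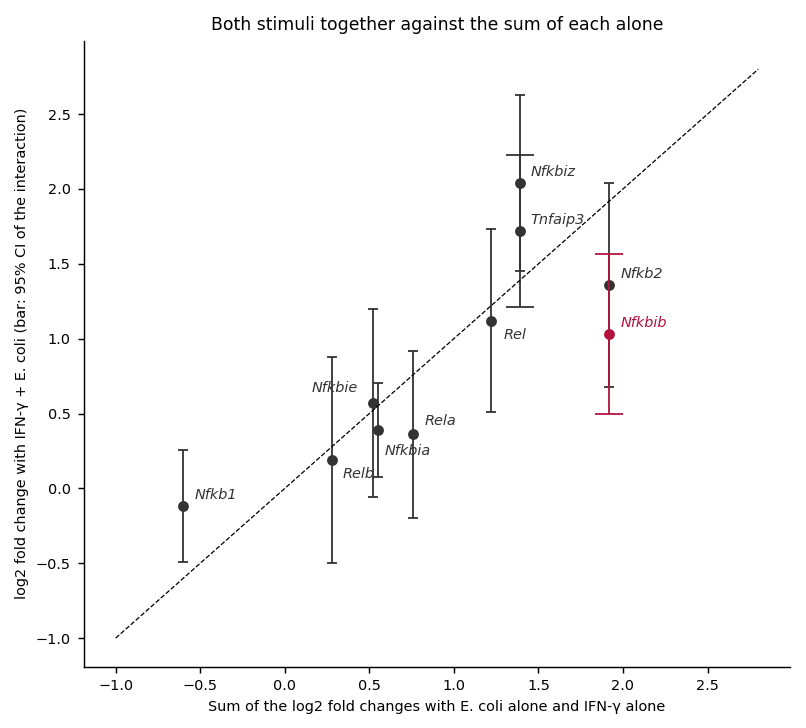
log2 fold change of each member with IFN-γ + E. coli (vertical axis) against the sum of its log2 fold changes with E. coli alone and IFN-γ alone (horizontal axis). The dashed line marks equality, bars are the 95% confidence interval of the interaction term, and red marks Nfkbib, the member whose interaction passed the threshold (-0.89). Nfkbiz and Tnfaip3 lie above the line with bars that, for Tnfaip3, reach it.

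With IL-4, no member passed the threshold in limma. At an unadjusted p under 0.05 there were 4, and edgeR and DESeq2 called 0 each. In this experiment 0.74% of all 10669 tested transcripts rose and 0.347% fell, or 79 and 37. These counts were 22 and 5 under upper quartile scaling and 345 and 311 without replicate 3 of both groups. Nfkbiz measured 88.7, 86.4 and 91.1 normalized counts in ACs and 43.5, 59.5 and 25.7 with IL-4. All 3 libraries with IL-4 were lower, but the lowest of them, from the shallow replicate 3, was counted from 5 reads. The log2 fold change was -1.11 ± 0.32 (95% confidence interval -1.82 to -0.40, limma adjusted p = 0.23). Without replicate 3 of both groups it was -0.77 and passed (adjusted p = 0.048), as it did with array weights (-0.84, adjusted p = 0.012) and with all libraries in 1 fit (-1.11, adjusted p = 0.016).

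The other members named by an unadjusted p under 0.05 with IL-4 were Nfkbia, Rel and Nfkb1. Nfkbia measured 3003, 2708 and 2863 normalized counts in ACs and 3641, 3717 and 3541 with IL-4. The groups did not overlap, and the log2 fold change was 0.35 ± 0.11 (limma adjusted p = 0.31). Rel measured 52.6, 44.4 and 53.6 in ACs and 85.8, 70.6 and 66.8 with IL-4, again without overlap (0.55 ± 0.24, limma adjusted p = 0.51). It passed with array weights (0.61, adjusted p = 0.037). Nfkb1 measured 296, 293 and 407 in ACs and 422, 421 and 432 with IL-4, a log2 fold change of 0.37 ± 0.17 (limma adjusted p = 0.52). The highest ACs value, 407, came from the shallow replicate 3, where it stands for 76 reads.

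For the remaining members the intervals with IL-4 included 0. Nfkb2, at 434 to 675 in ACs and 556 to 874 with IL-4, gave a log2 fold change of 0.24 ± 0.22, and it was -0.14 without replicate 3 of both groups. Tnfaip3, at 132 to 161 and 122 to 154, gave -0.15 ± 0.19 (95% confidence interval -0.57 to 0.28). Nfkbib, at 449 to 579 and 451 to 545, gave -0.05 ± 0.15 (95% confidence interval -0.39 to 0.29), which leaves out rises as large as the 0.95 seen with E. coli. Relb (0.48 ± 0.26), Nfkbie (0.24 ± 0.25) and Rela (-0.04 ± 0.28) had wider intervals, and the sign of the Rela value turned under upper quartile scaling (0.12). Whether a member responded differently to IL-4 than to E. coli or IFN-γ was not tested, since the stimuli belong to separate experiments with their own controls.

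The genes around the 10 members were described by 4 lists, which were not tested as sets. Their counts stand beside the shares of all tested transcripts. With E. coli 5.05% rose and 5.25% fell, with IFN-γ 11.4% and 9.96%, and with both 14.7% and 17.2%. Upstream receptors and adaptors, which carry signals from Toll-like, IL-1 and TNF receptors, had 25 tested genes in the Type 1 experiment. Of these, 7 rose with E. coli, 7 rose and 2 fell with IFN-γ, and 10 rose and 1 fell with both. Tnfrsf1b, which encodes TNF receptor 2, rose from a mean of 341 to 1118 normalized counts with E. coli (log2 1.71 ± 0.13, limma adjusted p = 3.4e-08) and to 1027 with IFN-γ (1.58 ± 0.13, limma adjusted p = 2.0e-08). Irak3, a brake on Toll-like and IL-1 receptor signaling, rose from 246 to 1171 with both stimuli (2.25 ± 0.13, limma adjusted p = 1.1e-10). Traf1, an adaptor of TNF receptors, rose from 23.4 to 102 with E. coli (2.16 ± 0.28, limma adjusted p = 2.4e-05). Cd40, a receptor for T cell help, rose from 233 to 682 with IFN-γ (1.56 ± 0.18), whereas Il1rap, the shared chain of IL-1 family receptors, fell from 93.5 to 30.4 (-1.64 ± 0.26, limma adjusted p = 0.0001).

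Of 11 genes for kinases of the pathway and their partner subunits and adaptors, 2 rose with IFN-γ and 3 with both. Chuk, Ikbkb, Ikbke, Map3k7, Map3k8 and Map3k14, which encode kinases, did not pass with any stimulus. With E. coli 0 passed in limma, edgeR and DESeq2, and 2 had an unadjusted p under 0.05. Ikbkg, which encodes the regulatory subunit NEMO of the IκB kinase complex, rose from a mean of 347 to 896 normalized counts with IFN-γ (1.37 ± 0.14, limma adjusted p = 4.6e-07) and to 992 with both (limma adjusted p = 8.6e-08). Tbk1, an IκB kinase relative that also activates interferon regulatory factors, rose from 179 to 342 with IFN-γ (0.93 ± 0.15, limma adjusted p = 8.4e-05). Tab2, an adaptor of the kinase TAK1, rose from 1472 to 2595 with both (0.81 ± 0.10, limma adjusted p = 3.3e-06).

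Of 18 other inhibitors and brakes, 5 rose with E. coli, 4 with IFN-γ and 8 with both, and 1 fell with both. Bcl3, a nuclear IκB protein, rose from a mean of 33.0 to 141 normalized counts with E. coli (2.06 ± 0.18), to 78.2 with IFN-γ (1.21 ± 0.18) and to 240 with both (2.82 ± 0.18, limma adjusted p = 5.8e-10). Nfkbid, which encodes the nuclear IκB protein IκBNS, rose from 203 to 499 with E. coli (1.30 ± 0.14, limma adjusted p = 2.6e-06) and to 672 with both (1.72 ± 0.14, limma adjusted p = 1.3e-08). Zc3h12a, an RNase that degrades inflammatory mRNAs, rose from 73.2 to 225 with E. coli (1.59 ± 0.16, limma adjusted p = 1.6e-06). Tax1bp1, an adaptor for A20, rose from 750 to 1186 with IFN-γ (0.66 ± 0.12, limma adjusted p = 0.00049), and Tnip2, an A20-binding protein, rose from 55.9 to 86.6 (0.62 ± 0.21, limma adjusted p = 0.035).

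Of 24 tested NF-κB target genes, 19 rose with E. coli, 12 with IFN-γ and 19 with both. Their median log2 fold change was 1.27, 0.68 and 1.84, against -0.00, -0.00 and -0.05 over all transcripts. Nos2, the inducible nitric oxide synthase, rose from a mean of 76.6 to 638 normalized counts with E. coli (3.07 ± 0.17), to 5363 with IFN-γ (6.13 ± 0.17) and to 5435 with both (6.16 ± 0.17, limma adjusted p = 1.0e-14). Ptgs2, which encodes cyclooxygenase-2, rose from 30.1 to 225 with IFN-γ (2.86 ± 0.27, limma adjusted p = 1.3e-07) and to 795 with both (4.70 ± 0.27, limma adjusted p = 7.7e-11). Il1b averaged 8.14 in ACs and 67.9 with E. coli, and Csf3, the granulocyte growth factor, 6.45 and 89.2. These 2 genes and Tnf averaged under 10 in ACs and passed the filter on low values through the groups in which they were high. They are 3 of the 19 genes called with E. coli and 3 of the 19 called with both. At a minimum mean of 50, 19 target genes were tested, of which 15 rose with E. coli, 11 with IFN-γ and 14 with both. Vcam1, an adhesion molecule, rose from 12.4 to 71.5 with IFN-γ (2.38 ± 0.35, limma adjusted p = 4.0e-05). The interaction term was below 0 past the threshold for 9 of these 24 genes, beside 4.28% of all transcripts. Several of these genes have other regulators too, such as interferon-activated factors for Nos2.

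With IL-4, 5 of 24 target genes rose and 1 fell, beside 0.74% and 0.347% of all tested transcripts. None of the 26 receptors and adaptors, 11 genes for kinases and their partners and 18 other inhibitors passed in limma, edgeR or DESeq2. In limma an unadjusted p under 0.05 was reached by 4, 0 and 1 of them, respectively. Il6 rose from a mean of 40.6 to 273 normalized counts (2.76 ± 0.36, limma adjusted p = 0.0057), and the chemokine gene Cxcl3 rose from 45.2 to 211 (limma adjusted p = 0.00055). Lcn2, which encodes the iron-binding protein lipocalin-2, fell from 1791 to 213 (-3.09 ± 0.18, limma adjusted p = 9.6e-05).

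**Figure D4:**
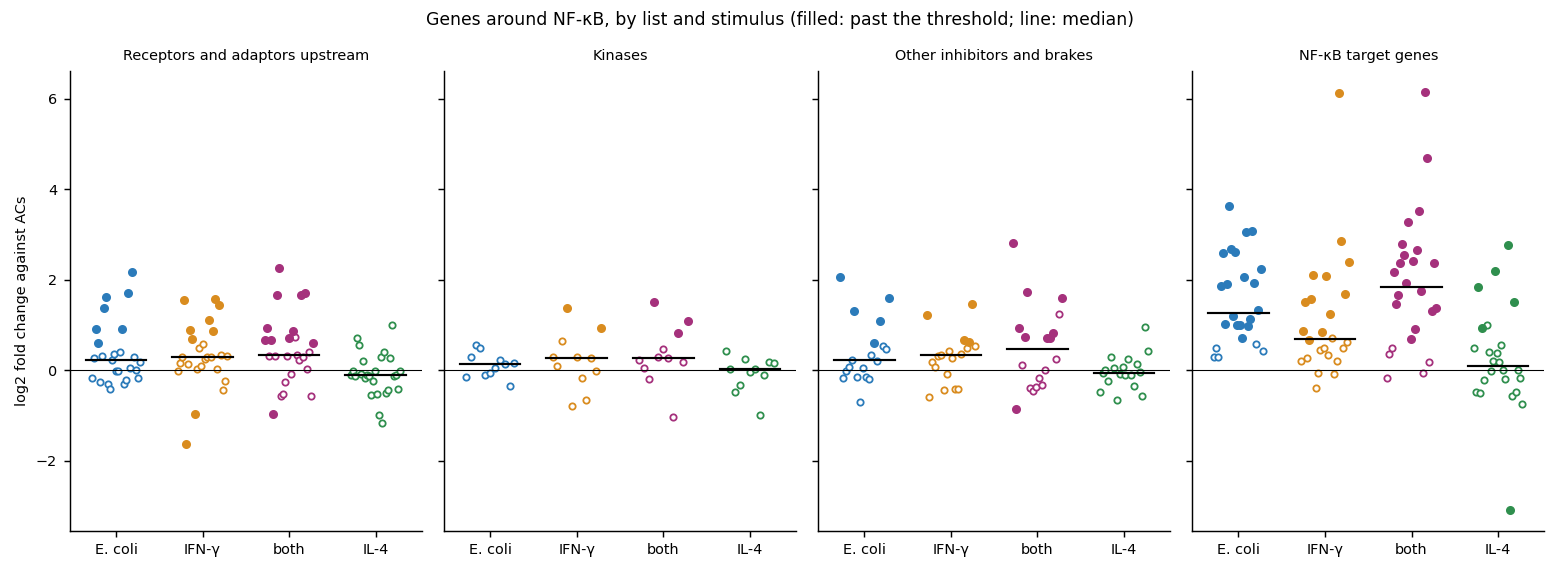
log2 fold change against ACs for every tested gene of 4 lists around NF-κB, with E. coli, IFN-γ, both or IL-4. Filled points passed the threshold, open points did not, and the lines are medians. The target genes have the largest medians of the 4 lists (1.27 with E. coli and 1.84 with both), and Nos2 reaches 6.16.

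For members called in at least 2 of the 4 comparisons against ACs, the genes with the most similar pattern were sought among 6358 transcripts, by the root mean square difference of the log2 fold changes over these 4 comparisons. The comparisons within the Type 1 experiment share control libraries, so this is a description. For Nfkb2 the nearest were Milr1 (0.13) and Zc3h12a (0.17), which is also in the list of brakes. For Rel they were Dctn4 (0.10) and Eml4 (0.12), and for Nfkbib they were Ube4a (0.10) and Slc3a2 (0.11). For Tnfaip3 they were Fyb (0.12) and Lmnb1 (0.13). Nfkbiz had no close neighbor among the transcripts searched: the nearest were Ccl3, at a difference of 0.41, and Slc39a4, at 0.52. These differences include the Nfkbiz value with IL-4 (-1.11), which did not pass and was -0.77 without replicate 3 of both groups. Ccl3, a chemokine gene, changed by 1.85 with E. coli, 0.27 with IFN-γ, 2.18 with both and -0.50 with IL-4.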

How the data were processed

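RNA of 18 eosinophil libraries was sequenced from 3′ ends with CEL-Seq2. The authors deposited normalized counts, a signal equal to reads per gene divided by a size factor of the library. Per the labels, the processing tools include TopHat2 2.1.0, Bowtie2 2.2.6, HTSeq 0.6.1 and DESeq2 1.26.0 with GRCm38. The study's methods describe a further pipeline, and which of them made the table, whether UMIs were collapsed and whether strand was used are not stated. Dividing by the step between values gave whole reads, within 0.02 reads, in each library for 100% of genes. A symbol was found for 54409 identifiers after dropping the version and for 37 it was not. Gene positions are from a GENCODE annotation of GRCm38.

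Groups follow the labels. The main test was limma 3.58.1 (lmFit, eBayes with trend) in R 4.3.3 on log2(normalized count + 1), for genes with a mean of at least 10 over the fitted libraries, separately for the 12 libraries of the Type 1 experiment and the 6 of the IL-4 experiment. Calls needed a Benjamini-Hochberg adjusted p under 0.05 over all tested genes and at least 1.5-fold. The scripts were tested on simulated data. Alternatives were a pseudocount of 5, no filter, a minimum mean of 50, upper quartile scaling, the replicate number as a block, count tests on the whole reads (edgeR 4.0.16, DESeq2 1.42.0), a single fit of all libraries, no fold threshold, array weights, and leaving out each library or, with IL-4, both replicate 3 libraries. Upper quartile scaling over the tested genes was added after seeing the data.

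From the lists, at most 3 genes per list and comparison were named, those that changed most past the threshold, given that the higher group averaged 50 or more. The members and lists were chosen with earlier results of these data known. Same-numbered replicates did not deviate together, so the block was kept as an alternative. Values below 3 reads were treated as not separable from 0, a floor that was set and not estimated. The number of reads behind a value bears on its counting error and not on the spread between replicates.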

Additional observations from a re-analysis of the deposited data

Results flagged for a closer look

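The interaction of IFN-γ and E. coli on Nfkbib differed from 0: the change with both stimuli was below the sum of the single changes by 0.89 on the log2 scale (-0.89 ± 0.26 SE; limma, adjusted p = 0.038). The difference itself was tested, as an interaction term over the 12 libraries of the Type 1 experiment. The group means were 206 normalized counts in ACs, 398 with E. coli, 403 with IFN-γ and 420 with both, each over 3 libraries. Over the 23 alternatives the term lay between -1.02 and -0.70, always below 0, with an adjusted p from 0.016 to 0.12. The call was lost in 9 of them.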

How the results depend on the processing

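Over the 7 comparisons, 1280 member values were recomputed under alternatives. For the combination against E. coli alone and against IFN-γ alone, only the 3 and 5 members with an unadjusted limma p under 0.05 were followed. Some alternatives could not move the log2 fold change itself, such as no fold threshold or leaving out a library of a group outside the comparison. Of these, 1224 kept their direction and their side of the threshold, 22 lost the call, 14 gained it and 20 changed sign, each of the last without passing the threshold before or after. The 4 calls with E. coli, the 5 with both stimuli, and the 1 and 3 calls for the combination against E. coli alone or IFN-γ alone were called under every alternative run, and leaving out single libraries gave counts of 4 to 5, 5 to 6, 1 and 3.

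With IFN-γ the count of members was 3. It was 5 with no fold threshold, 2 with edgeR, DESeq2, array weights and upper quartile scaling, and 1 with the upper quartile of tested genes. It was 1 to 3 without single libraries, the lowest without IFN-γ + ACs replicate 1. Counts in this paragraph take changes in either direction. The 5 with no fold threshold took in Nfkbia (0.34) and Nfkb1, which was lower (-0.40). Under upper quartile scaling Rel and Tnfaip3 lost their calls, and the 2 were Nfkbib, higher, and Nfkb1, lower (-0.67). The interaction count was 1. It was 0 with every gene above 0 and with upper quartile scaling, and 0 to 2 without single libraries. With IL-4 the count was 0. It was 1 with all libraries in 1 fit, 2 with array weights, 1 without replicate 3 of both groups, and 0 without single libraries. With array weights Rel was higher and Nfkbiz lower.

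The sign changes under upper quartile scaling were Relb with IFN-γ (-0.10) and with both (-0.11), and, with IL-4, Rela (0.12), Nfkbib (0.12) and Tnfaip3 (0.02), in a setting that moved the median of all transcripts to -0.26, -0.35 and 0.15. With IL-4, Nfkb2 changed sign with array weights (-0.03) and without replicate 3 of both groups (-0.14). Without single libraries, the values that changed sign ranged from -0.02 to 0.29 for Nfkbie with E. coli, from -0.33 to 0.00 for Nfkbiz with IFN-γ, from -0.38 to 0.16 for Rela and -0.13 to 0.05 for Nfkbib with IL-4, and, for the interaction, from -0.33 to 0.10 for Rel and -0.10 to 0.21 for Nfkbie. The cause was not tested.

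The replicate block, added to the model as a paired alternative, gave 4, 3, 5, 0, 1, 3 and 1 members in the 7 comparisons, the counts without it. Same-numbered libraries did not deviate together (mean correlation 0.005 over 18 pairs of the Type 1 experiment and 0.01 over 3 pairs of the IL-4 experiment). This does not show whether they share mice, which is not stated, and both replicate 3 libraries of the IL-4 experiment were shallow.

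Counts over all genes moved by more than 1.5 times in some settings. With E. coli, 534 transcripts were lower, 870 with array weights and 352 without ACs replicate 3. With IFN-γ, 1013 of 10166 tested were lower, and 645 of 6747 at a minimum mean of 50. With both, 1746 of 10166 were lower, and 963 of 6747 at that minimum. Against IFN-γ, 606 were higher, and 963 with no fold threshold. For the interaction, 321 were higher and 435 lower, with 161 and 239 without E. coli + ACs replicate 1, 485 higher with DESeq2 and 285 lower with all libraries in 1 fit. With IL-4, the 79 higher and 37 lower ranged from 22 and 5 with upper quartile scaling to 389 and 356 with array weights. In its replicate 3 libraries, 3 reads amount to 15.42 and 16.08 normalized counts, and Nfkbiz, Rel and Relb were counted there from 5 to 17 reads.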
